A study of Bos taurus with 20 samples.

Results

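Mitochondria carry their own small circular genome, and the 14 genes described here are those of the identifier block given for it that were abundant in skeletal muscle of heifer calves. They were chosen by identifier and by level: their Ensembl numbers lie between ENSBTAG00000043540 and ENSBTAG00000043585, and their mean over the 20 libraries was at least 100 scaled CPM. A scaled CPM is a count per 1000000 reads after TMM scaling (trimmed mean of M values), which evens out differences in library composition. The rule kept 14 of the 42 rows in that block and of the 27607 genes listed. The calves were Angus by Holstein-Friesian crossbred heifers, fed on either of 2 planes of nutrition from 2 to 21 weeks of age and all sampled at 21 weeks. For the first 8 weeks the daily ration of the 10 High plane calves was milk replacer (1.5 kg, in 10 litres) and concentrates without limit, and for the next 11 weeks concentrates without limit and hay. That of the 10 Moderate plane calves was milk replacer (0.5 kg, in 4 litres) and 1 kg of concentrates, and later 1 kg of concentrates and hay. The expected gains were 1.2 and 0.5 kg per day. Each calf gave 1 library of polyadenylated RNA, and the regimes ran until sampling.

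The mitochondrial genome encodes core protein subunits of the respiratory chain and of ATP synthase, together with the ribosomal and transfer RNAs used to translate them inside the organelle. It is copied as long transcripts that are cut into the separate RNAs, so many of the genes share a start of transcription while the cut RNAs can differ in processing and stability. The other subunits of the same complexes are encoded in the nucleus. Muscle uses this machinery to supply ATP for contraction, and mitochondrial content differs between fibre types.

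The table gave identifiers without names or positions, and no row of the gene table used here holds an Ensembl identifier (0 of 37063 rows). That RefSeq table, of assembly ARS-UCD2.0, lists 37 mitochondrial genes, of which 13 encode proteins, 2 ribosomal RNAs and 22 transfer RNAs. The 42 rows of the identifier block outnumber these 37 genes. That the 14 genes lie on the mitochondrial genome therefore rests on the identifier block alone, and which of them encodes which product is not given. They are called the block genes below. For the same reason the muscle, blood, fat and fibre type markers, and the nuclear genes of the respiratory chain, were not analysed here. In bulk muscle, fewer mitochondria-rich cells and less of such RNA per cell cannot be told apart.

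The boundary of the rule fell in a wide gap. The least abundant block gene kept, ENSBTAG00000043564, averaged 201 scaled CPM, and the most abundant row left out, ENSBTAG00000043546, averaged 26.4. Of the 28 rows left out, 11 had no read in any library, and together those 28 held 0.0778% of the reads of the block. Of the 14 genes kept, 9 were among the 50 most abundant genes of this muscle, which follows from the rule and is no finding. All 14 had reads in all 20 libraries and passed the filter on low counts. Their lowest count in any library was 5 reads, for ENSBTAG00000043559 in replicate 4 of the Moderate plane.

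The libraries held 12280289 to 14123113 reads assigned to genes. Over all genes, a pair of libraries was known from an earlier analysis of these data to stand apart from the others: H2, which is replicate 2 of the High plane, and M4, which is replicate 4 of the Moderate plane. Results are given with and without this pair, and other calves are named in the same way; the numbers follow the order of deposit and only name calves. Their TMM factors were 0.668 and 0.899, against 0.846 to 1.13 in the other libraries.

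The block genes together took, on average, a larger share of the reads in High plane muscle than in Moderate plane muscle. The summed share was 9.79% ± 1.29 of a library's reads on the High plane and 7.22% ± 1.96 on the Moderate plane (SD, n = 10 each). In High plane calves the lowest, median and highest shares were 8.15%, 9.63% and 11.9%. In Moderate plane calves they were 2.89%, 7.26% and 10.7%. All 10 High plane calves lay above the Moderate plane median, and 8 of 10 Moderate plane calves lay below the lowest High plane calf. The groups overlapped through Moderate plane replicates 3 and 7, at 10.7% and 8.40%. The difference of 2.57 percentage points was larger than the SD between calves of a group, 1.66 percentage points. No p-value is given for this sum, because the genes were chosen with earlier results of these data known.

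**Figure D1:**
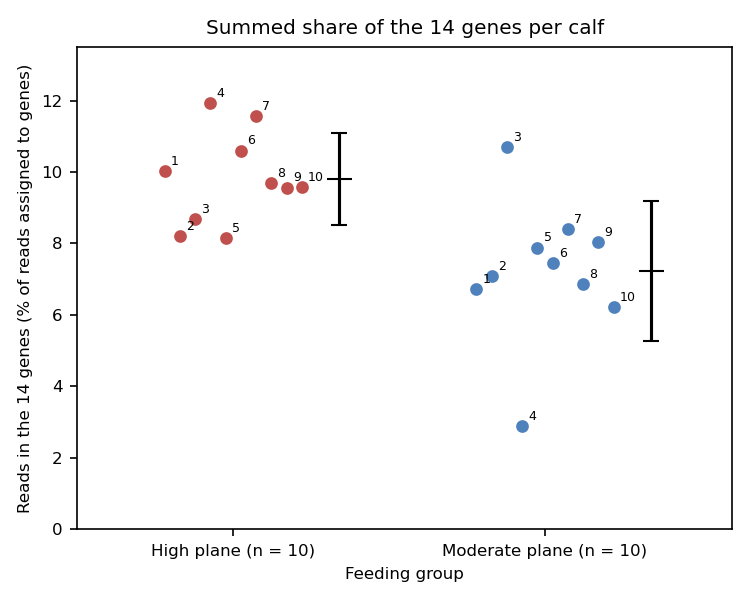
The y axis gives the reads in the 14 block genes as a percentage of all reads assigned to genes, for each calf of the High plane (red) and Moderate plane (blue) groups; numbers are replicates, and bars show the mean and SD of 10 calves. High plane calves range from 8.15% to 11.9%, and Moderate plane replicate 4 sits lowest at 2.89%.

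Moderate plane replicate 4 had the lowest share of all libraries, 2.89% (95% Wilson interval 2.88 to 2.90%), and the next lowest was Moderate plane replicate 10 at 6.21%. High plane replicate 2, the other library that stood apart, had 8.19%, close to the lowest of its group. On the scaled CPM used gene by gene below it stood high instead, since its TMM factor was 0.668. Its block genes summed to 122642 scaled CPM, above the High plane median of 96865. Without both libraries, the shares averaged 9.97% ± 1.23 and 7.70% ± 1.32 (SD, n = 9 each), so the difference was 2.27 percentage points. Counted against the reads of all other genes, the block genes had 10.9 ± 1.59 reads per 100 on the High plane and 7.82 ± 2.26 on the Moderate plane (SD, n = 10 each).

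Gene by gene, 14 of 14 block genes had a positive fitted difference, High minus Moderate. So had 51.4% of all genes tested and 56.2% of the other genes that averaged at least 100 scaled CPM. The count was 12 with limma voom. It was 13 with edgeR's quasi-likelihood test, with DESeq2's Wald test and with total reads as the scale. With limma it was also 13 without H9, M4, M10 or both libraries that stand apart. Only ENSBTAG00000043577 passed the test across all genes, which was limma's with a Benjamini-Hochberg adjusted p below 0.05 on the scale log2(scaled CPM + 1). By that rule 2.14% of all genes tested were called in either direction. Called higher on the High plane were 1.14% of all 12057 genes tested and 1.79% of the 951 other genes that averaged at least 100 scaled CPM. The median log2 fold change of the block genes was 0.63, beside 0.0071 over all genes tested and 0.039 over those other abundant genes. Without M4 alone the median of the block genes was 0.42. An unadjusted limma p below 0.05 with a higher level on the High plane was given to 11 of the 14 block genes. The same held for 8.34% of all genes tested and for 11.6% of the other genes at that level. The number of block genes called was 4 in DESeq2's Wald test on the recovered reads, which called 2.42% of all genes higher on the High plane. It was 3 with limma without both libraries that stand apart, where 1.92% of all genes were called higher, and 3 with edgeR's quasi-likelihood test without them, where 1.98% were. In these 3 fits the share called higher was also larger over all genes. Limma voom called 333 of the 12057 genes higher but only 1 block gene. The number of block genes called was 0 with limma on every gene that had a read (10 at an unadjusted p below 0.05). There, 0.502% of 19739 genes were called higher. The block genes varied together between calves, as shown further on, so these 14 values are not independent of each other. In none of them did the groups fail to overlap (0 of 14; 0.108% of all genes tested).

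ENSBTAG00000043577 averaged 7613 ± 1819 scaled CPM on the High plane and 4689 ± 1413 on the Moderate plane (SD, n = 10 each). Over the calves, the lowest, median and highest High plane values were 4830.2, 7747 and 10857 scaled CPM, and the Moderate plane values were 2454, 4482 and 7388. The High plane values lay above the Moderate plane median in 10 of 10 calves and above the highest Moderate plane value in 6. Its log2 fold change came to 0.72 ± 0.18 (SE, n = 10 each; limma adjusted p = 0.0350), which is 1.65-fold. Without both libraries that stood apart it was 0.62 ± 0.17 (SE, n = 9 each; limma adjusted p = 0.0413). The call was near the threshold: with 1 calf left out at a time the limma adjusted p ranged from 0.0174 to 0.0675 and lay below 0.05 in 11 of 20 fits; the call was lost without H1, H4, H6, H7, H9, M2, M6, M9 or M10. With every gene that had a read tested, its limma adjusted p was 0.0975. The fits with 1 calf left out that lost the call found 142 to 207 of all 12057 genes in either direction, against 258 with all calves.

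**Figure D2:**
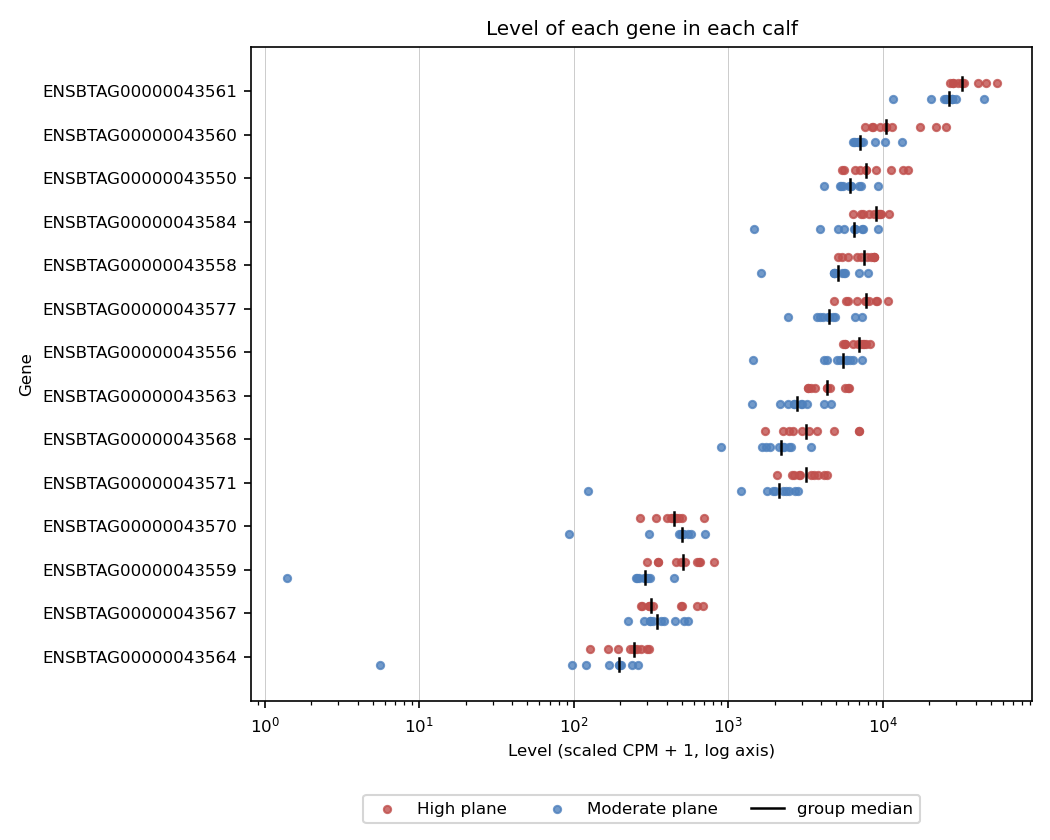
Each point is the level of a block gene in 1 calf, in scaled CPM + 1 on a log axis, for High plane (red) and Moderate plane (blue) calves, with the group medians as black lines. For ENSBTAG00000043577 the medians are 7747 and 4482 scaled CPM, and Moderate plane replicate 4 lies far to the left for ENSBTAG00000043559, ENSBTAG00000043564 and ENSBTAG00000043571.

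The other abundant block genes had differences of the same sign that did not pass. ENSBTAG00000043561 took the most reads of the set, with 35670.4 ± 9003 scaled CPM on the High plane and 26842 ± 8388 on the Moderate plane (SD, n = 10 each). Over the calves, the lowest, median and highest High plane values were 27348, 32759 and 54576 scaled CPM, and the Moderate plane values were 11692, 26975 and 45365. Its High and Moderate plane values overlapped widely, since Moderate plane replicate 3 exceeded 8 of the 10 High plane calves. The log2 fold change came to 0.44 ± 0.20 (SE; limma adjusted p = 0.272), and 0.29 ± 0.17 (SE; adjusted p = 0.378) without both libraries that stood apart.

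ENSBTAG00000043560 averaged 13212 ± 6282 scaled CPM on the High plane and 8059 ± 2226 on the Moderate plane (SD, n = 10 each). Over the calves, the lowest, median and highest High plane values were 7652, 10528 and 25679 scaled CPM, and the Moderate plane values were 6416, 7085 and 13312. The highest High plane value was that of replicate 2, and the 3 highest High plane calves lay above all Moderate plane calves. The log2 fold change came to 0.63 ± 0.22 (SE; limma adjusted p = 0.132).

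ENSBTAG00000043563 came nearest to the threshold among the genes not called. It averaged 4469.9 ± 1102 scaled CPM on the High plane and 2929 ± 929 on the Moderate plane (SD, n = 10 each), and over the calves the lowest, median and highest High plane values were 3268, 4373 and 6082 scaled CPM, and the Moderate plane values were 1429, 2798 and 4628. All 10 High plane calves lay above the Moderate plane median, and 8 of 10 Moderate plane calves lay below the lowest High plane calf. Its log2 fold change came to 0.64 ± 0.18 (SE; limma adjusted p = 0.0663). ENSBTAG00000043568 averaged 3811 ± 1899 scaled CPM on the High plane and 2131 ± 668 on the Moderate plane (SD, n = 10 each). Over the calves, the lowest, median and highest High plane values were 1739.8, 3174 and 7044 scaled CPM, and the Moderate plane values were 901, 2194 and 3452. Its highest High plane values, 7044 and 7021 scaled CPM in replicates 2 and 4, were more than those of all other calves, and the log2 fold change came to 0.76 ± 0.25 (SE; limma adjusted p = 0.111).

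ENSBTAG00000043550, ENSBTAG00000043584, ENSBTAG00000043558 and ENSBTAG00000043556 did not pass either. Over the calves, for ENSBTAG00000043550 the lowest, median and highest High plane values were 5416, 7767 and 14513 scaled CPM, and the Moderate plane values were 4159, 6139 and 9282. For ENSBTAG00000043584 the lowest, median and highest High plane values were 6459, 9061 and 11027 scaled CPM, and the Moderate plane values were 1459, 6545 and 9365. The lowest Moderate plane value of both genes was that of replicate 4. For ENSBTAG00000043558 the lowest, median and highest High plane values were 5154, 7606 and 8785 scaled CPM, and the Moderate plane values were 1626, 5157 and 8077, and for ENSBTAG00000043556 the lowest, median and highest High plane values were 5542, 7049 and 8249 scaled CPM, and the Moderate plane values were 1441, 5554 and 7401. The log2 fold changes of the 4 genes were 0.45, 0.66, 0.54 and 0.49, in that order, with limma adjusted p-values of 0.214, 0.151, 0.185 and 0.243. In each of these 4 genes at least 8 of the 10 High plane calves lay above the Moderate plane median, and the groups overlapped.

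The largest fitted differences belonged to genes in which Moderate plane replicate 4 was very low. ENSBTAG00000043559 averaged 521 ± 163 scaled CPM on the High plane and 271 ± 109.8 on the Moderate plane (SD, n = 10 each). Over the calves, the lowest, median and highest High plane values were 299, 509 and 811 scaled CPM, and the Moderate plane values were 0.394, 288 and 447. Moderate plane replicate 4 held 5 reads of it, 0.394 scaled CPM, whereas the other Moderate plane calves ranged from 252 to 447. The log2 fold change came to 1.52 ± 0.70 (SE; limma adjusted p = 0.285) with all calves. Without both libraries that stood apart it was 0.75 ± 0.17 (SE, n = 9 each; limma adjusted p = 0.0180), which passed the test, beside 1.92% of all genes called higher in that fit. Among these 18 calves, 6 of 9 High plane calves lay above the highest Moderate plane calf.

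ENSBTAG00000043571 followed the same course. It averaged 3252 ± 743 scaled CPM on the High plane and 1969 ± 804 on the Moderate plane (SD, n = 10 each), and Moderate plane replicate 4 had 123 scaled CPM against 1203 to 2826 in the other Moderate plane calves. The log2 fold change came to 0.99 ± 0.39 (SE; limma adjusted p = 0.198) with all calves and 0.65 ± 0.15 (SE; adjusted p = 0.0217) without both libraries. In the 18 remaining calves, 7 of 9 High plane calves lay above all Moderate plane calves. ENSBTAG00000043564 averaged 234 ± 57.2 scaled CPM on the High plane and 167 ± 74.9 on the Moderate plane (SD, n = 10 each). It was at 4.57 scaled CPM in Moderate plane replicate 4 and at 97.2 to 259 in the other Moderate plane calves. Its log2 fold change came to 0.84 ± 0.47 (SE; limma adjusted p = 0.405) with all calves and 0.44 ± 0.16 (SE; adjusted p = 0.138) without both, so it did not pass in either fit.

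A pair of block genes showed little difference between the groups. ENSBTAG00000043570 averaged 447 ± 113 scaled CPM on the High plane and 473 ± 166 on the Moderate plane (SD, n = 10 each), and over the calves the lowest, median and highest High plane values were 268, 445 and 702 scaled CPM, and the Moderate plane values were 92.2, 503.7 and 712. Only 1 of 10 High plane calves lay above the Moderate plane median. Its log2 fold change came to 0.028 ± 0.26 (SE; 95% interval -0.51 to 0.56; limma adjusted p = 0.977). The sign turned without both libraries that stood apart (-0.14 ± 0.13, SE; limma adjusted p = 0.619), with total reads as the scale (-0.027) and in edgeR's fit to the reads (-0.082). ENSBTAG00000043567 averaged 411 ± 154 scaled CPM on the High plane and 373 ± 105 on the Moderate plane (SD, n = 10 each), and over the calves the lowest, median and highest High plane values were 274, 318 and 691 scaled CPM, and the Moderate plane values were 222, 346 and 552. The groups overlapped almost throughout, with a log2 fold change of 0.11 ± 0.19 (SE; 95% interval -0.29 to 0.50; limma adjusted p = 0.849). For both genes the interval includes rises of the size fitted for ENSBTAG00000043561, so with all calves a difference of that size could not be told from none.

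**Figure D3:**
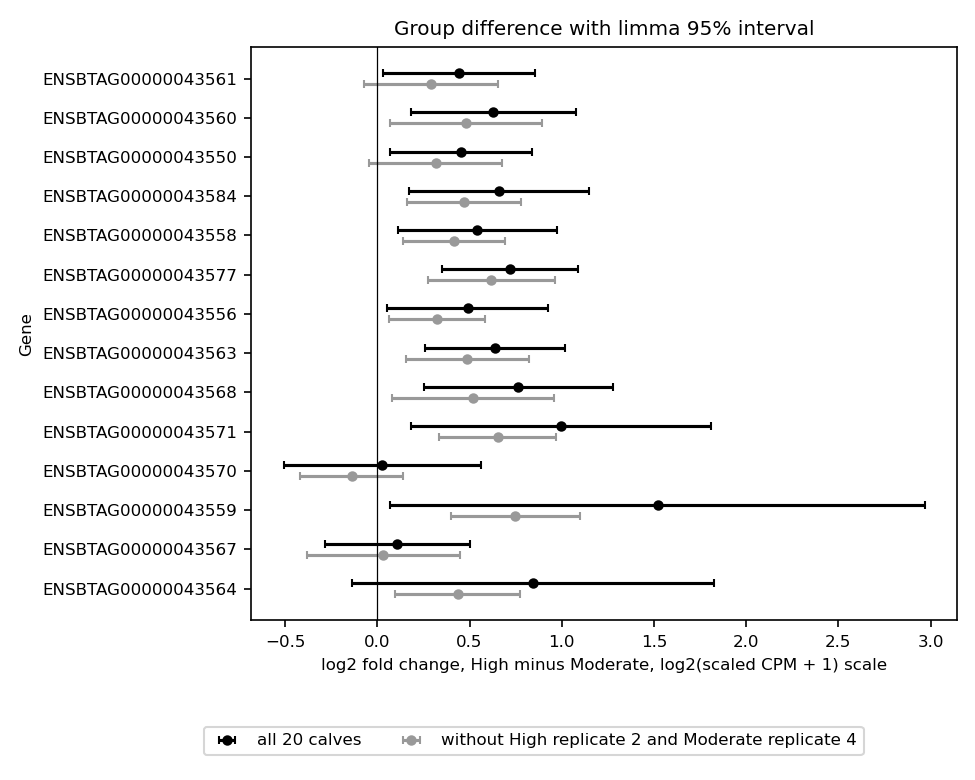
Points give each block gene's log2 fold change, High minus Moderate, on the log2(scaled CPM + 1) scale, with limma's 95% interval, for all 20 calves (black) and without H2 and M4 (grey). With all calves ENSBTAG00000043559 has the widest interval, 0.07 to 2.97, which narrows to 0.40 to 1.10 without those libraries.

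The reads were spread unevenly over the block genes in both groups. Shares of reads follow transcript length as well as number, and lengths were not at hand, so they do not rank the genes by molecules. The 3 genes with the most reads, ENSBTAG00000043561, ENSBTAG00000043560 and ENSBTAG00000043550, held 56.3% ± 4.74 of the block genes' reads on the High plane and 58.8% ± 4.40 on the Moderate plane (SD, n = 10 each). Pielou's evenness, which is 1 when all genes hold equal shares, was 0.785 ± 0.0221 on the High plane and 0.768 ± 0.0223 on the Moderate plane (SD, n = 10 each). The lowest, median and highest values were 0.746, 0.785 and 0.812 in High plane calves and 0.721, 0.774 and 0.804 in Moderate plane calves. The difference of 0.0176 was smaller than the SD between calves, 0.0222, and the groups overlapped.

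Within the set, ENSBTAG00000043561 held 35.2% ± 3.02 on the High plane and 37.8% ± 2.09 on the Moderate plane (SD, n = 10 each). ENSBTAG00000043577, the gene called between the groups, held 7.53% ± 0.821 on the High plane and 6.69% ± 0.859 on the Moderate plane. The group means differed by more than the SD between calves in 2 of the 14 genes. ENSBTAG00000043559 held 0.511% ± 0.0974 on the High plane and 0.370% ± 0.153 on the Moderate plane, and ENSBTAG00000043570 held 0.465% ± 0.164 on the High plane and 0.657% ± 0.182 on the Moderate plane. Without both libraries that stood apart the same 2 genes and ENSBTAG00000043577 did so, the last with 7.67% ± 0.735 on the High plane and 6.59% ± 0.842 on the Moderate plane (SD, n = 9 each). Shares of 1 total depend on each other, and none of these differences was tested.

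**Figure D4:**
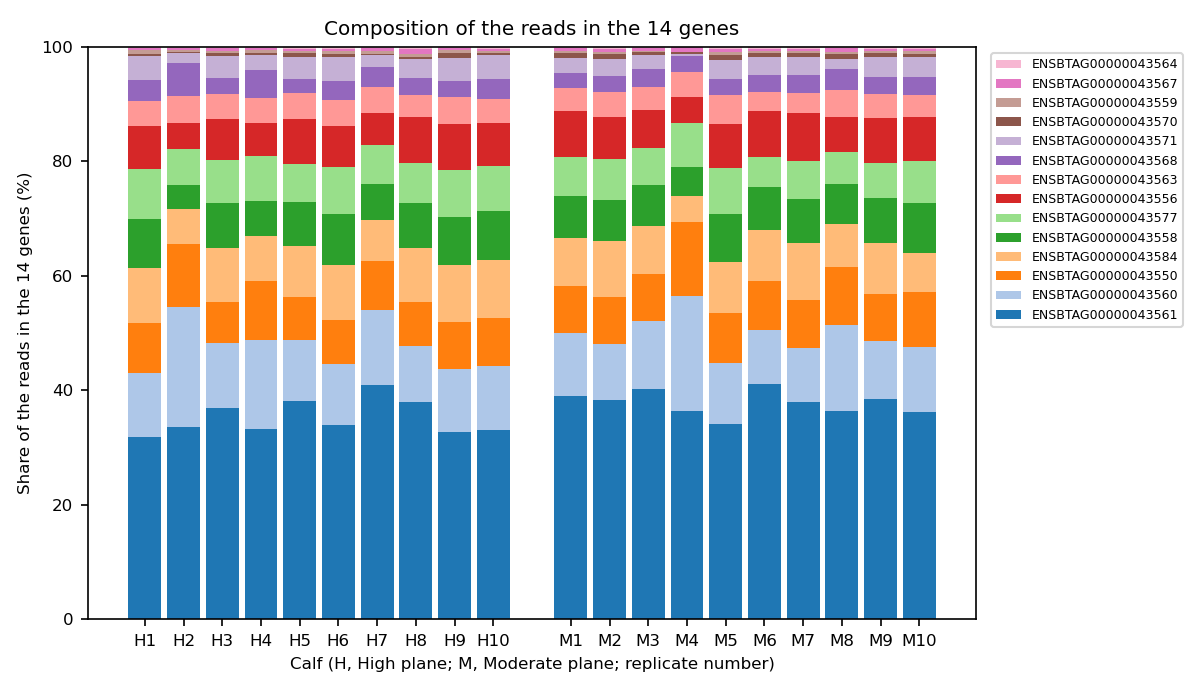
Each bar divides the reads of the 14 block genes in 1 calf among the genes, in percent; H and M are High and Moderate plane calves with their replicate numbers. ENSBTAG00000043560 holds 20.9% in H2 and 20.2% in M4, against 9.32 to 15.7% in the other calves.

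Both libraries that stood apart differed from the others in this composition, and in part in the same genes. ENSBTAG00000043560 held 20.9% of the block genes' reads in High plane replicate 2 and 20.2% in Moderate plane replicate 4, above all other calves (9.32 to 15.7%). ENSBTAG00000043550 was likewise above all others, at 11.0% and 12.9% against at most 10.3%. ENSBTAG00000043584, ENSBTAG00000043558, ENSBTAG00000043556, ENSBTAG00000043571, ENSBTAG00000043564 and ENSBTAG00000043570 held smaller shares in both libraries than in any other calf. For ENSBTAG00000043571 these were 1.70% and 0.383%, against 1.74 to 4.24% elsewhere. ENSBTAG00000043559 was not shared in this way, with 0.401% in High plane replicate 2 and 0.00122% in Moderate plane replicate 4.

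In Moderate plane replicate 4 the level of every block gene was below the median of the other Moderate plane calves, by very different amounts. It was 1.12-fold below for ENSBTAG00000043560 and 1.29-fold below for ENSBTAG00000043567. It was 4.51-fold below for ENSBTAG00000043584, 18.3-fold below for ENSBTAG00000043571 and 42.7-fold below for ENSBTAG00000043564. The largest gap was 741-fold, for ENSBTAG00000043559, where M4 held 5 reads. High plane replicate 2 was above the median of its group for ENSBTAG00000043560 (2.44-fold) and ENSBTAG00000043568 (2.35-fold) and below it for ENSBTAG00000043564 (1.96-fold). These folds are of scaled CPM, which carry its TMM factor of 0.668. In reads, H2 held less than H4 of ENSBTAG00000043560 (231313 against 246347) and of ENSBTAG00000043568 (63453 against 78441). What sets H2 and M4 apart from the other libraries was not tested.

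With all calves, each block gene varied more within the groups than the median gene did. Their within-group SD on the log2 scale had a median of 0.493 and ranged from 0.399 (ENSBTAG00000043577) to 1.77 (ENSBTAG00000043559), beside a median of 0.316 over all genes tested. Without both libraries that stood apart their SDs ranged from 0.233 to 0.484, and that of ENSBTAG00000043559 was 0.391. The median over all genes tested was then 0.264, and 12 of 14 block genes lay above it.

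They also varied together. With the group means removed, the 91 pairs of block genes had a median Pearson's r of 0.67 over the 20 calves, from 0.055 to 0.98. Of these pairs, 69 had a permutation p below 0.05 after Benjamini-Hochberg adjustment over the pairs by Pearson's r and 63 by Spearman's rho. All pairs share libraries and scaling. Pairs of other genes were not computed, so these values do not show a trait particular to the block genes. The median r was 0.76 with total reads as the only scale, and 0.67 with totals and TMM factors computed without the block genes. Neither scale removes the shared library. Without both libraries that stood apart the median r was 0.60. Pairs with r below 0.3 then numbered 20, against 13 with all calves, and pairs above 0.9 numbered 5, against 15.

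By Pearson's r over all calves the closest pair was ENSBTAG00000043584 with ENSBTAG00000043556. For it Pearson's r was 0.98 (permutation p = 1.00e-05, adjusted p = 5.69e-05) and Spearman's rho 0.93 (permutation p = 1.00e-05, adjusted p = 1.01e-04), and r was 0.93 without M4 and M10, the calves farthest from the median of ENSBTAG00000043584. ENSBTAG00000043550 with ENSBTAG00000043568 was the closest pair by Spearman's rho, and without H2 and M4 also by Pearson's r (0.98, against 0.92 for ENSBTAG00000043584 with ENSBTAG00000043556). Over all calves Pearson's r was 0.97 (permutation p = 1.00e-05, adjusted p = 5.69e-05) and Spearman's rho 0.96 (permutation p = 1.00e-05, adjusted p = 1.01e-04), and r was 0.95 without H4 and H2. ENSBTAG00000043550 also ran with ENSBTAG00000043560: Pearson's r was 0.94 (permutation p = 1.00e-05, adjusted p = 5.69e-05) and Spearman's rho 0.94 (permutation p = 1.00e-05, adjusted p = 1.01e-04), and r was 0.91 without H2 and H4. The permutation p of 1e-05 is the smallest that 100000 resamples can give. In these pairs the ratio of the genes varied less between calves of a group than in the median pair. The SDs of the log2 ratio were 0.130, 0.221 and 0.173, beside a median of 0.517 over all pairs. The ratios were not fixed: ENSBTAG00000043568 had a within-group SD of 0.599 on the log2 scale, and ENSBTAG00000043550 had 0.416.

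**Figure D5:**
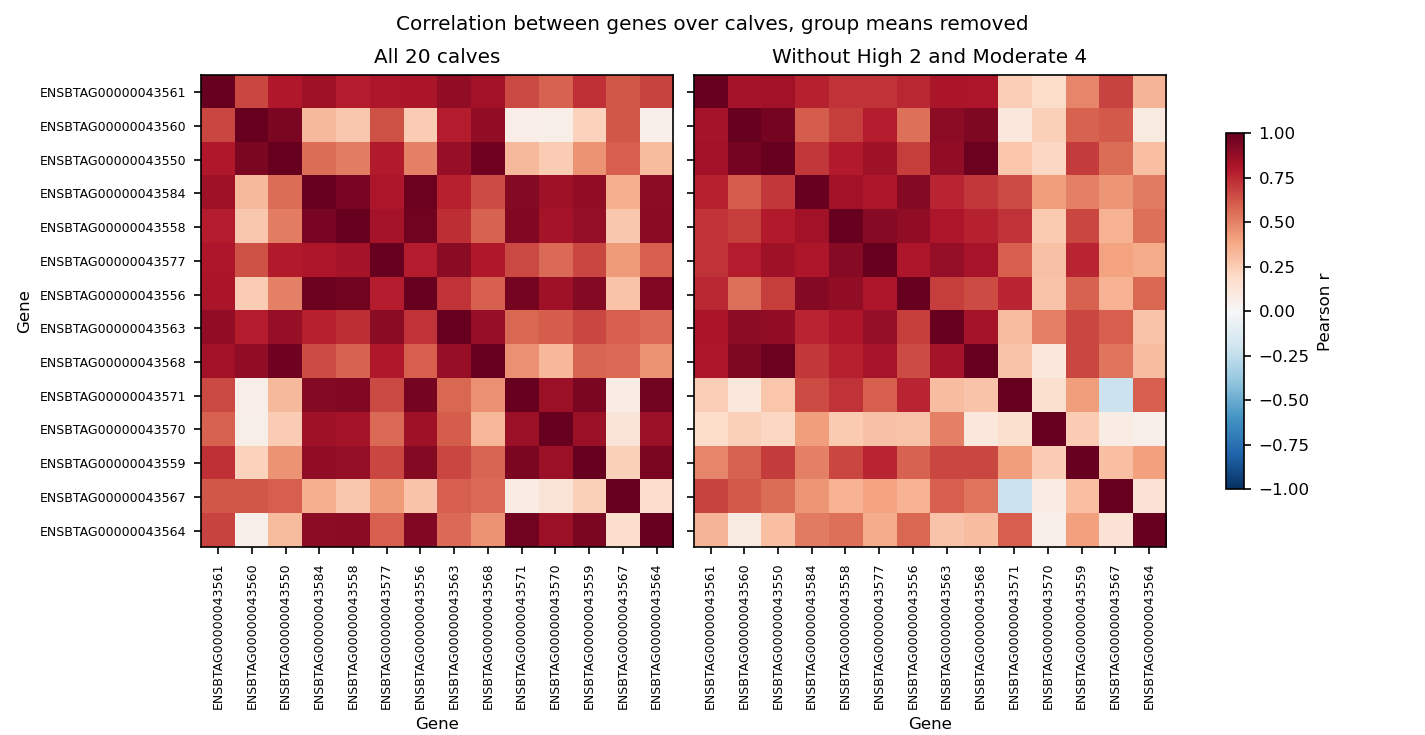
Colours give Pearson's r between block genes over calves, on log2(scaled CPM + 1) levels with group means removed, for all 20 calves (left) and without H2 and M4 (right). The pair ENSBTAG00000043584 and ENSBTAG00000043556 is dark red in both panels (r = 0.98 and 0.92), and ENSBTAG00000043571 with ENSBTAG00000043559 pales from 0.94 to 0.42.

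Other pairs were loosely tied, or tied mainly through a few calves. ENSBTAG00000043560 and ENSBTAG00000043564 had an r of 0.055 (permutation p = 0.768, adjusted p = 0.770) and a rho of 0.075 (permutation p = 0.712, adjusted p = 0.720), and r was 0.22 without H2 and H4. For ENSBTAG00000043571 and ENSBTAG00000043559 Pearson's r was 0.94 (permutation p = 0.00515, adjusted p = 0.00905) and Spearman's rho 0.71 (permutation p = 0.00360, adjusted p = 0.00745). Their r was 0.39 without M4 and M8 and 0.42 without H2 and M4, so the high value was not kept when M4 was among the calves left out. ENSBTAG00000043560 with ENSBTAG00000043558 went the other way, from an r of 0.27 (permutation p = 0.171, adjusted p = 0.192; rho 0.48, permutation p = 0.0404, adjusted p = 0.0574) with all calves to 0.69 without both libraries that stood apart, and 0.53 without H2 and H4. ENSBTAG00000043567 and ENSBTAG00000043570 were the genes that differed least between the groups, and their r was 0.13 (permutation p = 0.570, adjusted p = 0.596; rho 0.16, permutation p = 0.468, adjusted p = 0.478), and 0.071 without M4 and H2.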

How the data were processed

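Gene expression was measured by RNA sequencing in 1 skeletal muscle library per calf. The deposited table holds a normalised signal: its values show that the authors divided each read count by a TMM-scaled library size and multiplied by 1000000. Tools named per the submitters' processing notes are STAR 2.6.1, cutadapt 2.6, FastQC 0.11.8, edgeR 3.5 and R 3.4, and the build is ARS-UCD1.2. Not given in the sources used here are the counting tool, the annotation release and whether counting used strand, so reads of opposite strands or of nuclear copies of mitochondrial sequence cannot be told apart.

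Whole reads were recovered (100% of values within 0.01 of a whole read). One read was worth 0.0673 to 0.111 scaled CPM. Wilson intervals cover counting error only.

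Genes passing edgeR's filterByExpr (minimum count 10, edgeR 4.0.16) were fitted by group alone on log2(scaled CPM + 1), using limma 3.58.1 with its intensity trend in R 4.3.3. The test was two-sided, adjusted over all 12057 genes, and tested on simulated data, where the share of false calls was above the nominal rate, so calls near the threshold are less certain than their adjusted p. Fold changes on this scale understate changes at low levels. Correlations used two-sided permutations of calves within groups (100000 resamples, scipy 1.17.1). The count tests, edgeR's quasi-likelihood test and DESeq2 1.42.0, were alternatives. Every gene of the rule was named. The genes, lists and tests were chosen with earlier results of these data known. The lists of nuclear respiratory genes and cell type markers could not be matched to identifiers and were not used.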

Additional observations from a re-analysis of the deposited data

Results flagged for a closer look

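The levels, within-set shares, summed share and evenness of the block genes were searched in each group of 10 for a calf far from the rest. Of 60 groups of values, 9 held such a calf, and chance picks out about 1 in 20 groups; the groups of values are not independent. Of the 9, 7 were in High plane replicate 2 or Moderate plane replicate 4.

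Moderate plane replicate 4 lay far below its group in ENSBTAG00000043558 (1626 scaled CPM, next 4814) and in ENSBTAG00000043559 (0.394, next 252). In the same library ENSBTAG00000043550 held 12.9% of the block genes' reads (next 10.2%), ENSBTAG00000043558 held 5.06% (next 6.97%) and ENSBTAG00000043559 held 0.00122% (next 0.253%). ENSBTAG00000043560 held 20.9% of these reads in High plane replicate 2 (next 15.7%) and 20.2% in Moderate plane replicate 4 (next 15.002%). Among the other libraries, ENSBTAG00000043568 held 3.69% in Moderate plane replicate 8 (next 3.12%) and ENSBTAG00000043567 held 0.800% in High plane replicate 8 (next 0.467%).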

How the results depend on the processing

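The number of block genes called, 1 with limma on all calves, was 0 with every gene with a read tested (10 at an unadjusted limma p below 0.05), 4 with DESeq2's Wald test, 3 without both libraries that stood apart (limma) and 3 in edgeR's quasi-likelihood test without them, the last chosen after seeing the data. Over all genes these fits called 180 (of 19739), 583, 419 and 464 in either direction, against 258 of 12057 with limma on all calves. DESeq2 called ENSBTAG00000043577, ENSBTAG00000043560 (adjusted p = 0.0299), ENSBTAG00000043563 (0.0229) and ENSBTAG00000043568 (0.0218). The other scalings and pseudocounts, limma voom and edgeR with all calves called ENSBTAG00000043577 alone. Over all 12057 genes voom called 619 in either direction, edgeR 297, and the other scalings and pseudocounts 232 to 258. Leaving out 1 calf gave 0 to 2 block genes, beside 142 to 409 of all genes tested called in either direction. ENSBTAG00000043577, the gene called with all calves, lost its call without High plane replicate 1, 4, 6, 7 or 9 or Moderate plane replicate 2, 6, 9 or 10 (limma adjusted p at most 0.0675; 8 to 11 genes at an unadjusted p below 0.05). The fits that lost this call found 142 to 207 of all genes in either direction, and those that kept it 169 to 409. A second block gene was called without Moderate plane replicate 3 (ENSBTAG00000043563) or 4 (ENSBTAG00000043559), where 226 and 275 of all genes were called. The fitted difference of ENSBTAG00000043570 turned negative with edgeR (-0.082; without both libraries -0.14), DESeq2 (-0.081), voom (-0.085), total reads (-0.027) and limma without both libraries (-0.14), and ranged from -0.22 to 0.11 with 1 calf left out. That of ENSBTAG00000043567 turned with voom (-0.0092). The cause was not tested. The median log2 fold change of the block genes stayed between 0.42 and 0.72 with 1 calf left out (lowest without Moderate plane replicate 4), and the difference in summed share between 2.09 and 2.96 percentage points. No paired analysis was possible because the labels give no replicate numbers; those used here follow the order of deposit within a group and only name calves. Depth did not limit the block genes except ENSBTAG00000043559 in Moderate plane replicate 4, at 5 reads.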

Other observations

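Of the 28 rows of the identifier block that fell under the mean of 100 scaled CPM, 7 were abundant enough to be tested. Of these 1 passed (limma, adjusted over all genes tested), beside 2.14% of all genes called in either direction. An unadjusted limma p below 0.05 was given to 5 of the 7, beside 8.34% of all genes higher on the High plane and 7.53% lower. ENSBTAG00000043549 averaged 1.87 ± 1.10 scaled CPM on the High plane and 0.577 ± 0.331 on the Moderate plane (SD, n = 10 each). It held 9 to 55 reads per High plane library and 1 to 17 per Moderate plane library, with 1 in Moderate plane replicate 4. Its log2 fold change came to 0.81 ± 0.18 (SE; limma adjusted p = 0.0187). ENSBTAG00000043546, the most abundant of these rows, held 276 to 748 and 25 to 469 reads. Its log2 fold change came to 1.05 ± 0.31 (SE; limma adjusted p = 0.0804), which did not pass. Moderate plane replicate 4 had its group's fewest reads in both. ENSBTAG00000043581 went the other way, at -0.31 ± 0.12 on the log2 scale (SE; limma adjusted p = 0.193), and did not pass. It held 116 to 211 reads per High plane library and 148 to 299 per Moderate plane library, the most in Moderate plane replicate 4. These rows were chosen after their values were seen, and whether they are mitochondrial genes is not given.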
